A study of Rattus norvegicus with 24 samples.

Results

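A set of 10 genes of inflammation was followed in rat kidney: the chemokines Ccl2, Cxcl1 and Cxcl10, the cytokines Il1b, Il6 and Il18, the adhesion molecule Icam1, the complement protein C3, and Cd14 and Tlr4, which sense bacterial lipopolysaccharide. They were chosen by name, by taking every probe set (the group of short probes that reads 1 transcript) whose single gene symbol was one of these. This gave 10 probe sets for 10 genes of 31142 probe sets that are no controls, and all 10 were on the first of the 2 arrays used, RAE230A. Left kidneys of male rats were compared between the congenic substrains ET3x2 and ET3x1 and the inbred Dahl salt-sensitive strain SS/jr, called S from here on. From general knowledge of these strains, the congenic rats have the S background and carry alleles of a salt-resistant strain on a part of chromosome 3. All rats ate a diet with 0.4% NaCl until 39 to 41 days of age and then 2% NaCl for 28 days, and were 67 to 69 days old when the kidneys were taken, so that no strain was measured without the raised salt. Kidney RNA of 3 rats was pooled in ET3x2 (pools I, J, K and L) and in ET3x1 (pools E, F, G and H), and of 2 rats in S (pools A, B, C and D), giving 4 pools per strain, 12 pools and 32 rats. A pool is an average of its rats, and the spread between pools understates the spread between rats. Pools of fewer rats, as in S, can be expected to vary more, while the model used below takes the same spread for all strains.

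In an inflamed tissue, Toll-like receptors and the receptor of interleukin 1 signal through the adaptor MyD88 and the ubiquitin ligase Traf6 to the transcription factor NF-kB, which switches on genes of chemokines, cytokines and adhesion molecules. Chemokines draw leukocytes from the blood, adhesion molecules hold them at the vessel wall, and complement tags targets for uptake or lysis. In kidneys of salt-loaded Dahl S rats, infiltration by macrophages and T cells is well described, and the tubules themselves can make several of these proteins.

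The sequences just before the start of 3 of the genes are shown here. Icam1 and Cxcl10 were taken as genes described in detail, and Il1b as the gene on the congenic chromosome. Ccl2 is described in detail too, but no such sequence was at hand for it. The sequences are the 250 bases before the start of the transcript, read 5′ to 3′ on the strand of the gene, from RefSeq on the assembly GRCr8. Capitals mark matches to 2 motifs, each searched on both strands: a kappaB motif, the element NF-kB is known to bind, as GGNNNTTCC or its reverse GGAANNNCC, and an interferon-stimulated response element (ISRE), as TTTC, any 2 bases and TTTC, or on the reverse strand GAAA, any 2 bases and GAAA. In these genes no match of one motif overlapped a match of the other. The motifs were chosen with these genes in view. Icam1 is shown from chr8:27829595-27829844 (plus strand), Cxcl10 from chr14:15988816-15989065 (plus strand) and Il1b from chr3:137036582-137036831 (minus strand).
Icam1: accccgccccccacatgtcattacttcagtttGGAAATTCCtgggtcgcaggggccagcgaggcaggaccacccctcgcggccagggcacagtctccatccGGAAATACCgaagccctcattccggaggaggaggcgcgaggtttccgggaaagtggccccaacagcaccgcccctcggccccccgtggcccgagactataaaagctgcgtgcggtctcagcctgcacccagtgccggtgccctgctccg
Cxcl10: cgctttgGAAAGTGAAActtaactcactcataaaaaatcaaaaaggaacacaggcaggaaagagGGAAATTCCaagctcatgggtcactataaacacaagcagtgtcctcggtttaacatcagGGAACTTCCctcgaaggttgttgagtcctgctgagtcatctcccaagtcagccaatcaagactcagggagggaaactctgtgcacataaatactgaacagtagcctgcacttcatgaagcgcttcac
Il1b: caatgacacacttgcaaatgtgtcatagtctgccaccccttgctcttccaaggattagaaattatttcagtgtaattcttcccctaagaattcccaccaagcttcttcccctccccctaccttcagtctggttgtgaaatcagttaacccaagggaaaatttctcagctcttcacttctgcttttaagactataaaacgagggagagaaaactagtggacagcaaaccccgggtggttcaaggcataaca
In Icam1 the kappaB matches began 218 and 149 bases before the start. In Cxcl10 they began 186 and 127 bases before the start, and the ISRE match began 243 bases before it. The Il1b window held neither motif. Such sequences were at hand for 9 of the 10 genes, all but Ccl2. A kappaB match was present in 5 of those 9 (Cxcl1, Cxcl10, Il6, Icam1 and C3), where 15.4% of 33469 rat promoters of the same length hold one. An ISRE match was present in 1 of 9 (Cxcl10), against 3.41% of all promoters. A match is a description of letters and not evidence of a bound site.

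The values are log2 signals, so that a difference of 1 is a doubling. A probe set was tested where its mean over the 12 pools reached the 30th percentile of its array, a log2 signal of 7.52. Of the 10 genes, 6 passed: Ccl2, Cxcl10, Il1b, Il18, Icam1 and C3. The other 4 lay under it: Cd14 with a mean 0.020 below the level, Tlr4 at 7.28, Cxcl1 at 6.64 and Il6 at 5.67. Differences of these 4 come from the same model fitted without the filter, and since the background of these arrays is unknown, the size of such differences is uncertain. Levels are compared between pools for 1 probe set and not between genes, since probe sets differ in brightness for the same amount of RNA.

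None of the 6 tested genes passed an adjusted p under 0.05 (limma, adjusted by Benjamini and Hochberg over all probe sets of the array) in any comparison. The smallest adjusted p (limma) was 0.304 (Icam1, ET3x1 and S), 0.503 (Icam1, ET3x2 and S) and 0.538 (Il18, ET3x2 and ET3x1). The background was low too: of 21799 probe sets tested on both arrays, 0.44% were called for ET3x1 against S, 0.344% for ET3x2 against S and 1.48% for ET3x2 against ET3x1. On RAE230A alone, where these genes are read, the shares were 0.207%, 0.081% and 1.04% of 11106 probe sets. A count of 0 of 6 therefore lies near the background in each comparison. At an unadjusted p under 0.05 (limma) Icam1, 1 of the 6, passed between ET3x1 and S, as did 13.2% of the tested probe sets of RAE230A. None of the 6 did so in the comparison of ET3x2 with S (background 11.4%) or of ET3x2 with ET3x1 (background 15%). The median log2 difference of the 6 genes was 0.066 for ET3x1 against S, 0.028 for ET3x2 against S and −0.0031 for ET3x2 against ET3x1, against −0.0047, 0.025 and 0.032 over all probe sets tested. Both comparisons with S use the same 4 S pools, so the 2 sets of differences are not independent. A p that misses the threshold does not show that the strains are alike, and the 95% intervals given below show which differences the 4 pools per strain leave possible.

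**Figure D1:**
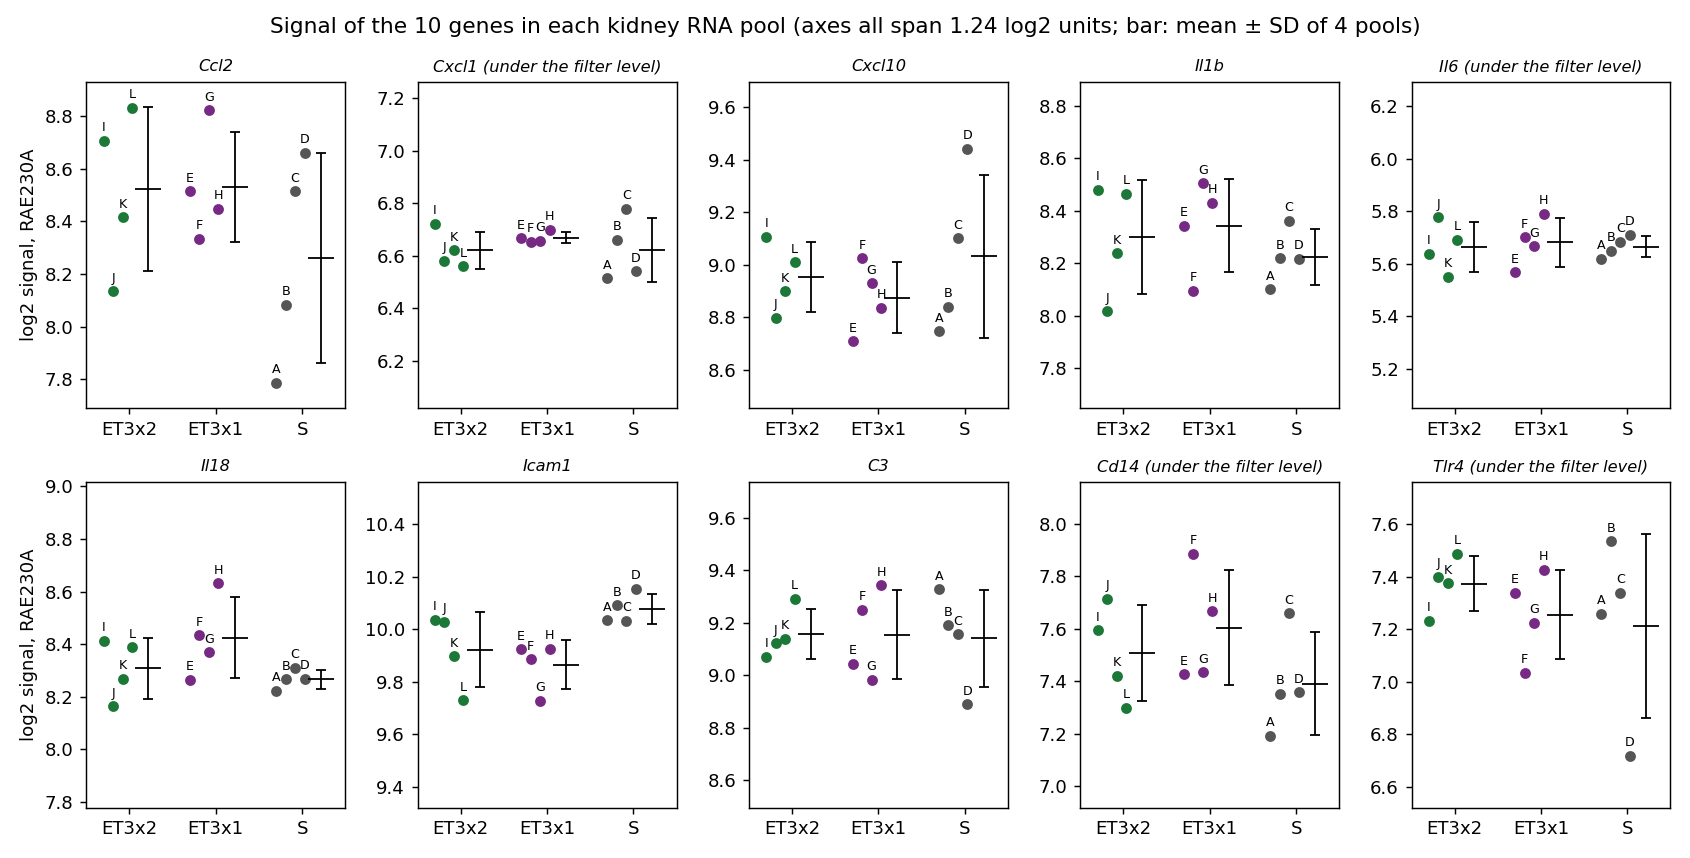
Log2 signal (vertical axis) of the 10 genes in each of the 12 RNA pools, with ET3x2, ET3x1 and S from left to right in each panel; each point is 1 pool with its letter, each bar is the mean ± SD of 4 pools, and all panels span the same number of log2 units, each around its own gene. Every pair of strains overlaps for every gene, except ET3x1 and S for Icam1, whose 4 ET3x1 pools (9.73 to 9.93) lie under the 4 S pools (10.03 to 10.15).

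Ccl2 (monocyte chemoattractant protein 1) draws monocytes into tissue. Its probe set 1367973_at, for a gene on chromosome 10, had log2 signals of 8.71, 8.13, 8.42 and 8.83 in ET3x2 pools I to L, 8.51, 8.33, 8.82 and 8.45 in ET3x1 pools E to H, and 7.78, 8.08, 8.52 and 8.66 in S pools A to D. The lowest values were those of S pools A and B and of ET3x2 pool J, and S pools C and D lay within the range of both congenic strains. The means were 8.52 ± 0.313 in ET3x2, 8.53 ± 0.209 in ET3x1 and 8.26 ± 0.401 in S (SD, n = 4 each). The log2 difference was 0.27 between ET3x1 and S (95% interval −0.13 to 0.66, limma adjusted p = 0.541) and 0.26 between ET3x2 and S (−0.13 to 0.66, limma adjusted p = 0.622). Between ET3x2 and ET3x1 it was −0.0073. The interval of ET3x1 against S reaches from a signal 8.42% lower to one 58.5% higher. Without S pool D the differences with S were 0.40 for ET3x1 and 0.39 for ET3x2.

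Ccl2 had the widest spread of the 10 genes. Its SD within strains, 0.318, lay at percentile 97.3 of the tested probe sets of RAE230A, and its 12 values spanned 1.05 log2 units. The spread followed the 3 pools that stand apart on these arrays. Actin control probe sets read the 5′ and the 3′ end of the transcript, and their log2 difference (5′ minus 3′) is a sign of RNA quality. It was highest in pools A, B and J, at −1.27 to −1.14, against −2.10 to −1.66 in the other 9. The 5′ end thus read least far below the 3′ end in A, B and J. By this sign they are not the pools of lower RNA quality. In these 3 pools Ccl2 was at 7.78 to 8.13, against 8.33 to 8.83 in the other 9, with no overlap. Without pools A, B and J, which leaves 2 S pools, the log2 difference was −0.058 between ET3x1 and S and 0.064 between ET3x2 and S. With the actin signal as a covariate it was 0.063 for ET3x1 against S, 0.28 for ET3x2 against S (limma unadjusted p = 0.00818, limma adjusted p = 0.145) and 0.21 between ET3x2 and ET3x1. The genes whose signals followed Ccl2 most closely over the 12 pools, among 8126 genes on the same array, were Ndufa5 (Pearson r = 0.932), Sdhb (0.926) and Prmt5 (0.919). These values share arrays and pools, and the 3 low pools bear on each of them.

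**Figure D2:**
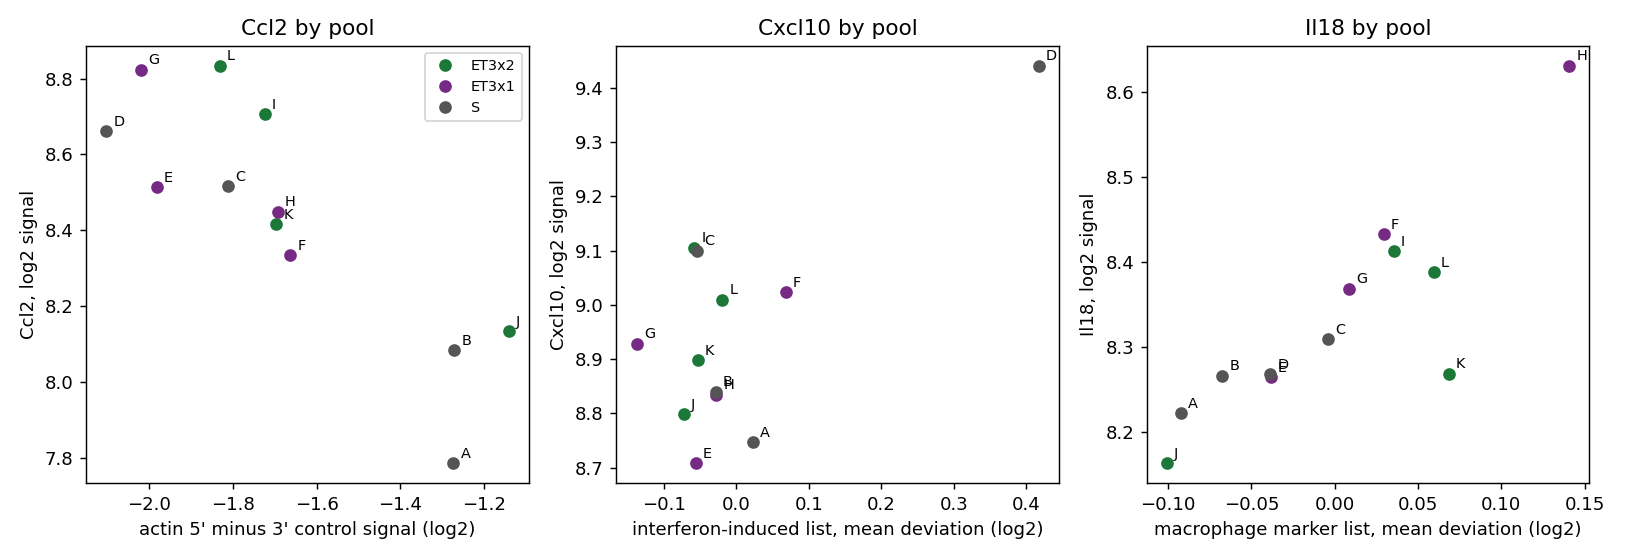
Log2 signal (vertical axes) of Ccl2 against the actin 5′ minus 3′ signal, of Cxcl10 against the mean deviation of the interferon-induced genes, and of Il18 against that of the macrophage markers, each point 1 pool with its letter, coloured by strain (ET3x2, ET3x1 and S). Ccl2 is lowest in pools A, B and J (7.78 to 8.13), which have the highest actin 5′ minus 3′ signal (−1.27 to −1.14). Cxcl10 is highest in S pool D (9.44), which has the highest mean of the interferon-induced genes (0.418). Il18 and the mean of the macrophage markers are both highest in pool H and lowest in pool J.

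Cxcl10 is a chemokine induced by interferons that attracts T cells and natural killer cells through the receptor Cxcr3. Its probe set 1387969_at (chromosome 14) had log2 signals of 9.11, 8.80, 8.90 and 9.01 in ET3x2 pools I to L, 8.71, 9.02, 8.93 and 8.83 in ET3x1 pools E to H, and 8.75, 8.84, 9.10 and 9.44 in S pools A to D. S pool D was the highest of the 12 and S pool A among the lowest, so that the S pools spanned the range of both congenic strains almost entirely. The means were 8.95 ± 0.133 in ET3x2, 8.87 ± 0.135 in ET3x1 and 9.03 ± 0.311 in S (SD, n = 4 each). The log2 difference was −0.16 between ET3x1 and S (95% interval −0.44 to 0.12, limma adjusted p = 0.618), −0.079 between ET3x2 and S (limma adjusted p = 0.861) and 0.079 between ET3x2 and ET3x1 (limma adjusted p = 0.816).

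The size of the Cxcl10 differences with S depended on which S pools were used. Without pool D they were −0.022 between ET3x1 and S and 0.057 between ET3x2 and S. Without pools A, B and J, which leaves S pools C and D, they were −0.40 between ET3x1 and S (limma unadjusted p = 0.00576, limma adjusted p = 0.323) and −0.27 between ET3x2 and S. A list of interferon-induced genes moved with pool D as well. Its 19 tested probe sets, for 16 of 21 listed genes, had a mean deviation from the 12-pool average that was highest in pool D, at 0.418. The range was −0.073 to −0.020 in ET3x2, −0.138 to 0.068 in ET3x1 and −0.054 to 0.418 in S. Its part in the Cxcl10 values was not tested. The genes most like Cxcl10 over the 12 pools were Slc2a8 (Pearson r = 0.952), Hapln2 (0.910) and Ppp4r3a (0.893), each lowest in pool E and highest in pool D. Genes picked for their likeness to a member tend to share its extreme pools by that choice. Here and for the genes below, such sharing is no separate evidence of a pool pattern.

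Cxcl1 draws neutrophils through the receptor Cxcr2, and its signal (probe set 1387316_at, chromosome 14) lay under the filter level in every pool. It was 6.56 to 6.72 in ET3x2, 6.65 to 6.70 in ET3x1 and 6.51 to 6.78 in S. The ET3x1 pools lay within the S range. On the log2 scale Cxcl1 differed by 0.045 between ET3x1 and S and −0.0034 between ET3x2 and S, with a limma adjusted p of 0.808 and 0.991. Without S pool A these were 0.0084 and −0.040, and without S pool C 0.097 and 0.048. Of 10 listed neutrophil markers 7 were on the arrays and 2 were above the filter. These were Csf3r, at 7.61, and Camp, at 7.93, both on the second array, RAE230B, where the filter level was 6.85. S100a8 and S100a9, the calcium-binding proteins that fill neutrophils, averaged 5.603 and 5.94 on RAE230A, both under its level.

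Il1b encodes interleukin 1 beta, which is made as a precursor and cut by caspase 1 in the inflammasome before release. It was the single member on chromosome 3, which also carries the congenic segment. The boundaries of that segment are not given in the sources used here. Its probe set 1398256_at had log2 signals of 8.48, 8.02, 8.24 and 8.46 in ET3x2 pools I to L, 8.34, 8.10, 8.51 and 8.43 in ET3x1 pools E to H, and 8.10, 8.22, 8.36 and 8.22 in S pools A to D. The lowest value was that of ET3x2 pool J and the highest that of ET3x1 pool G, and the ranges of all 3 strains overlapped. Il1b differed by 0.12 between ET3x1 and S (95% interval −0.12 to 0.36, log2 scale), 0.075 between ET3x2 and S (−0.16 to 0.31) and −0.043 between ET3x2 and ET3x1 (−0.28 to 0.19), with a limma adjusted p of 0.667, 0.843 and 0.887. Leaving out single pools or adding the actin covariate moved these values: the first was 0.20 without pool F and 0.041 with the covariate, the second 0.015 without pool I and 0.17 without pool J, and the third −0.13 without pool F and 0.051 without pool J. Pools A, B and J had Il1b values of 8.02 to 8.22, low in the range as they were for Ccl2, but here the other 9 pools (8.10 to 8.51) overlapped them. The genes most like Il1b were Mef2c (Pearson r = 0.874), Chchd1 (0.850) and Ndufa4 (0.834).

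Il18 encodes interleukin 18, a second cytokine matured by caspase 1, which is known to be made by macrophages and by tubule cells. Its probe set 1369665_a_at (chromosome 8) had log2 signals of 8.41, 8.16, 8.27 and 8.39 in ET3x2 pools I to L, 8.26, 8.43, 8.37 and 8.63 in ET3x1 pools E to H, and 8.22, 8.27, 8.31 and 8.27 in S pools A to D. The S pools lay within a narrow band, and 3 of the 4 ET3x1 pools were above all of them. The means were 8.31 ± 0.115 in ET3x2, 8.42 ± 0.154 in ET3x1 and 8.27 ± 0.0354 in S (SD, n = 4 each). The log2 difference was 0.16 between ET3x1 and S (95% interval −0.021 to 0.34, limma adjusted p = 0.431), 0.042 between ET3x2 and S (−0.14 to 0.22, limma adjusted p = 0.888) and −0.12 between ET3x2 and ET3x1 (−0.29 to 0.062, limma adjusted p = 0.538). Without pool H the difference between ET3x1 and S was 0.089, and without pool E it was 0.21. For ET3x2 against S it was 0.0068 without pool I and 0.090 without pool J.

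The mean of a list of macrophage markers moved with Il18. The 13 tested probe sets of that list stood for 12 of 14 listed genes, with Adgre1, a defining surface marker of rodent macrophages, under the filter and Msr1 not analysed here. Their mean deviation ran from −0.101 to 0.068 in ET3x2, from −0.038 to 0.141 in ET3x1 and from −0.092 to −0.0038 in S. Both this mean and Il18 were highest in ET3x1 pool H and lowest in ET3x2 pool J. Single markers did not all follow the mean. Csf1r was highest in pool H but lowest in pool C, and Cd163 was highest in pool B and lowest in pool E. Between ET3x1 and S 11 probe sets had a positive and 2 a negative difference. Between ET3x2 and S these counts were 8 and 5. The pools with the highest actin 5′ minus 3′ signal were low in both: J, A and B were the 3 lowest for the list (−0.101, −0.092 and −0.068), and Il18 was at 8.16 to 8.27 in these 3, against 8.26 to 8.63 in the other 9. Its part in the Il18 values was not tested, and in whole kidney fewer cells of a type and less RNA per cell cannot be told apart. The genes most like Il18 were Ccl6 (Pearson r = 0.887), Oprm1 (0.877) and RT1-Db1 (0.874), each highest in pool H.

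Il6 encodes interleukin 6, which signals through Il6st and Stat3. Its probe set 1369191_at (chromosome 4) lay further under the filter level than the other 3 untested ones, at 5.55 to 5.78 in ET3x2, 5.57 to 5.79 in ET3x1 and 5.62 to 5.71 in S. The 12 values spanned 0.24 log2 units. On the log2 scale Il6 differed by 0.016 for ET3x1 against S, −0.00067 for ET3x2 against S and −0.017 for ET3x2 against ET3x1. At such a signal a difference in Il6 was not detectable, which does not show that Il6 was absent.

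Icam1, which leukocytes grip through integrins such as the Itgb2 heterodimers, was the only one of the 10 genes whose pools did not overlap in a comparison. Its probe set 1387202_at (chromosome 8) had log2 signals of 10.04, 10.03, 9.90 and 9.73 in ET3x2 pools I to L, 9.92, 9.89, 9.73 and 9.93 in ET3x1 pools E to H, and 10.03, 10.09, 10.03 and 10.15 in S pools A to D. All 4 ET3x1 pools were under all 4 S pools, while ET3x2 pools I and J lay at the level of S and pools K and L at that of ET3x1. The means were 9.92 ± 0.144 in ET3x2, 9.87 ± 0.0945 in ET3x1 and 10.08 ± 0.0577 in S (SD, n = 4 each).

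The log2 difference of Icam1 between ET3x1 and S was −0.21 (SE 0.084, 95% interval −0.39 to −0.033), or 0.863 times the S signal. It did not pass the test over all probe sets (limma adjusted p = 0.304, unadjusted p = 0.0233). Since the pools do not overlap, an exact two-sided permutation test had to give p = 0.0286, the smallest that 4 pools against 4 allow. It adds nothing to the lack of overlap, for which Icam1 is singled out among the genes. ET3x1 pools lay wholly under S pools for 2.14% of the tested probe sets of RAE230A, and pools did not overlap in either direction for 6.97%, with 5.84% in the comparison of ET3x2 with S and 9.25% in that of ET3x2 with ET3x1, where none of the 6 genes did so. The difference was −0.16 between ET3x2 and S (95% interval −0.33 to 0.024, limma adjusted p = 0.503) and 0.057 between ET3x2 and ET3x1 (−0.12 to 0.24, limma adjusted p = 0.787). Without pool L these were −0.091 for ET3x2 against S and 0.12 for ET3x2 against ET3x1, and without pool G the second was 0.011. Across 22 other settings of the processing the value between ET3x1 and S stayed between −0.23 and −0.17. The unadjusted p was under 0.05 (limma) in 19 and the adjusted p 0.243 or more in all of them. Settings that change only the filter or the prior, or leave out an ET3x2 pool or all of them, cannot move this value. The rest reuse the same pools, so the narrow range is no separate evidence.

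Markers of endothelium, where Icam1 is also made, are given beside it. The 10 tested probe sets, for 8 of 10 listed genes, had a mean deviation of −0.021 to 0.041 in ET3x2, −0.111 to 0.081 in ET3x1 and −0.021 to 0.095 in S. Pool G was lowest and pool B highest in the mean of this list, and no marker of it was called in any comparison. Its probe sets did not all move together, with 3 positive and 7 negative differences between ET3x1 and S. Emcn was at 0.22 there, and Tek and Vwf at −0.18 and −0.29. At an unadjusted p under 0.05 (limma) 3, 1 and 3 passed between ET3x1 and S, ET3x2 and S, and ET3x2 and ET3x1. The shares of all tested probe sets of both arrays were 11.8%, 10.9% and 13.1%. The part of this list in the Icam1 values was not tested. The genes most like Icam1 over the 12 pools were Ddah1 (Pearson r = 0.925), Hibadh (0.877) and Pdgfc (0.876), each lowest in pool G, the pool with the lowest Icam1 value.

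**Figure D3:**
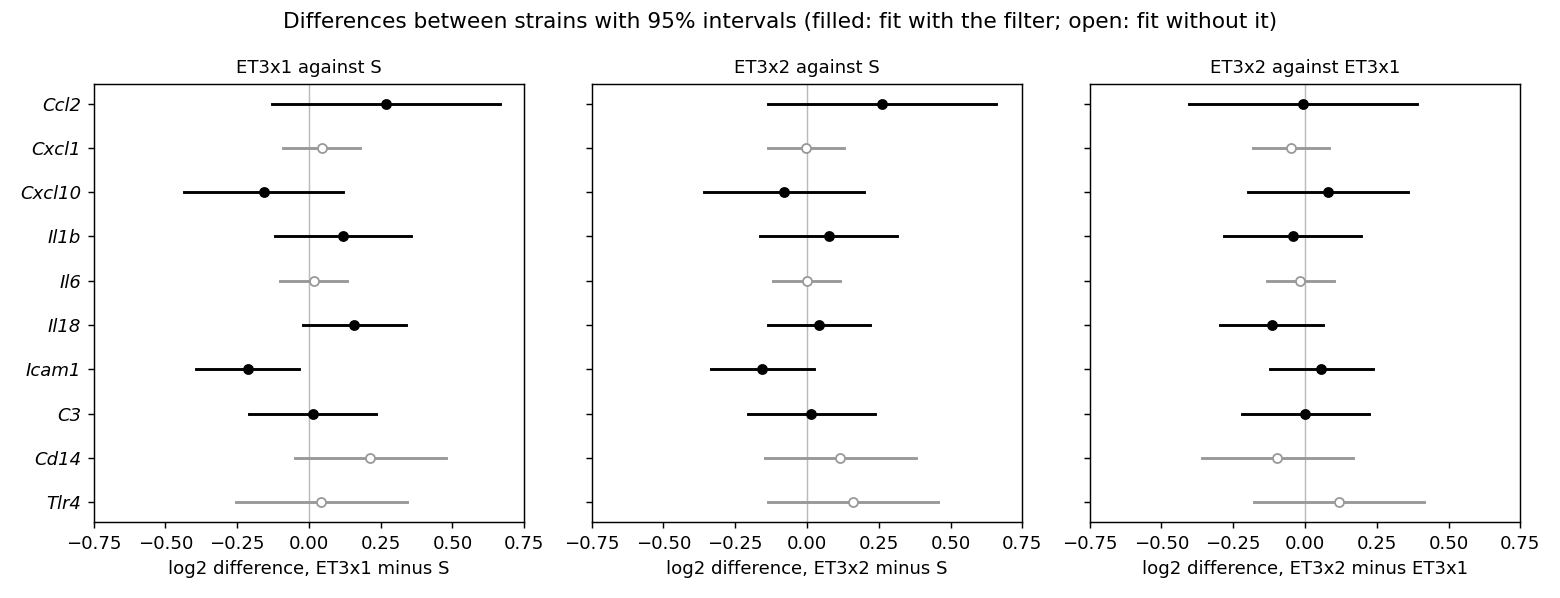
Log2 difference (horizontal axis) of each of the 10 genes in 3 panels, ET3x1 minus S, ET3x2 minus S and ET3x2 minus ET3x1; points are estimates and lines are 95% intervals from limma, filled for the 6 tested genes and open for the 4 genes taken from the fit without the filter. All intervals include 0 except that of Icam1 between ET3x1 and S (−0.39 to −0.033).

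C3 is the protein on which all pathways of complement activation meet. Its probe set 1368000_at (chromosome 9) had log2 signals of 9.07, 9.12, 9.14 and 9.29 in ET3x2 pools I to L, 9.04, 9.25, 8.98 and 9.34 in ET3x1 pools E to H, and 9.33, 9.19, 9.16 and 8.89 in S pools A to D. S held both the lowest pool (D) and, in pool A, nearly the highest, so the ranges of the congenic strains fell almost wholly within that of S. The C3 signal differed by a log2 value of 0.014 between ET3x1 and S (95% interval −0.21 to 0.24), 0.015 between ET3x2 and S (−0.21 to 0.24) and 0.0011 between ET3x2 and ET3x1 (−0.22 to 0.22), with a limma adjusted p of 0.966, 0.968 and 0.998. Without pool D the differences turned to −0.070 between ET3x1 and S and −0.069 between ET3x2 and S. The genes most like C3 were Melk (Pearson r = 0.895), Abhd13 (0.866) and Asap1 (0.851), each lowest in pool D.

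Cd14 binds lipopolysaccharide and hands it to Tlr4. Its probe set 1368490_at (chromosome 18) had log2 signals of 7.59, 7.71, 7.42 and 7.30 in ET3x2 pools I to L, 7.43, 7.89, 7.43 and 7.67 in ET3x1 pools E to H, and 7.19, 7.35, 7.66 and 7.36 in S pools A to D. ET3x1 pool F was the highest and S pool A the lowest, and the strains overlapped. In the fit without a filter the log2 difference was 0.21 between ET3x1 and S (95% interval −0.050 to 0.48, limma adjusted p = 0.510), 0.12 between ET3x2 and S (−0.15 to 0.38, limma adjusted p = 0.805) and −0.097 between ET3x2 and ET3x1 (−0.36 to 0.17, limma adjusted p = 0.782). With A, B and J left out, the differences with S were 0.094 for ET3x1 and −0.071 for ET3x2, and without S pool C they were 0.30 and 0.21. Between ET3x2 and ET3x1 the value was −0.0028 without pool F.

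Tlr4 is the receptor that carries the lipopolysaccharide signal into the cell. Its probe set 1387982_at (chromosome 5) had log2 signals of 7.23, 7.40, 7.38 and 7.49 in ET3x2 pools I to L, 7.34, 7.03, 7.23 and 7.43 in ET3x1 pools E to H, and 7.26, 7.54, 7.34 and 6.72 in S pools A to D. S pool D was the lowest of the 12, under the 7.03 of ET3x1 pool F, S pool B was the highest, above the 7.49 of ET3x2 pool L, and S pools A and C lay among the congenic ones. The Tlr4 signal differed by a log2 value of 0.043 for ET3x1 against S, 0.16 for ET3x2 against S and 0.12 for ET3x2 against ET3x1 (limma adjusted p 0.927, 0.748 and 0.761 in the fit without a filter). Without pool D it was −0.12 between ET3x1 and S and −0.0041 between ET3x2 and S, and without pools A, B and J 0.23 and 0.34.

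**Figure D4:**
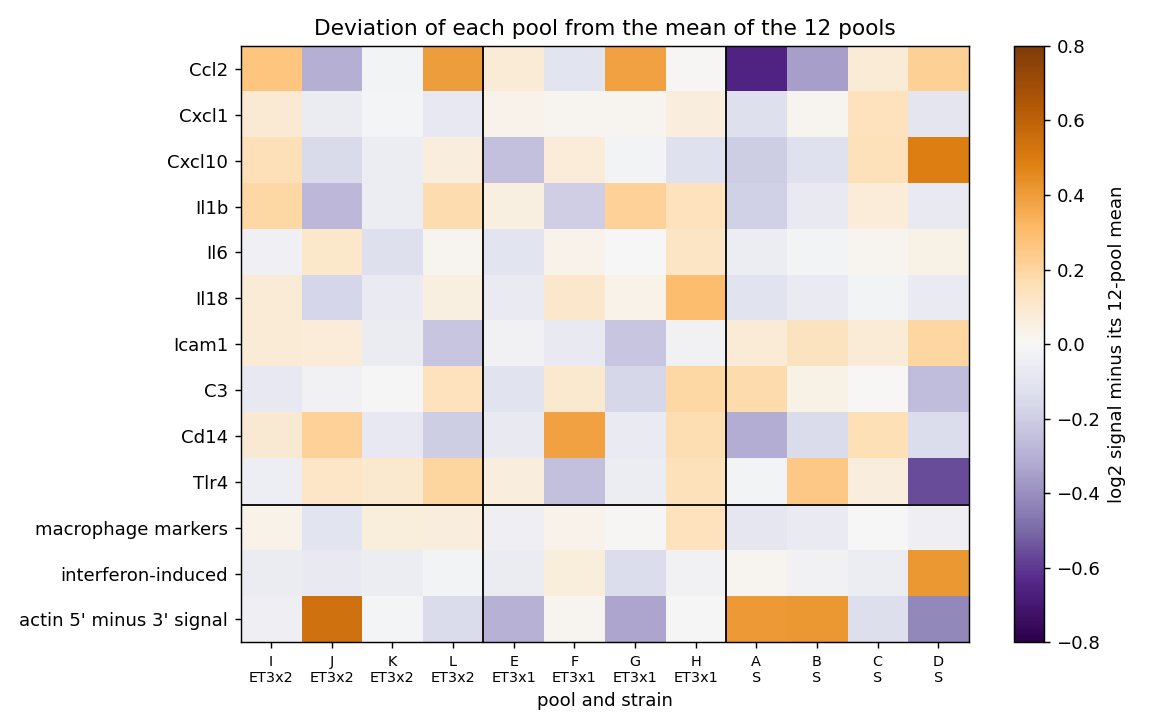
Deviation (colour) of each gene's log2 signal from its own mean over the 12 pools, with genes down the page, then the macrophage markers, the interferon-induced genes and the actin 5′ minus 3′ signal, and the pools of ET3x2, ET3x1 and S from left to right. Ccl2 is low in pools A, B and J, and S pool D combines the highest Cxcl10 (9.44) with the lowest C3 (8.89) and the lowest Tlr4 (6.72).

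The other genes of these pathways were counted from lists of chemokines, cytokines, receptors and signalling components. Among the other chemokines (27 probe sets, 20 genes), 1 was called between ET3x1 and S and 0 in the comparisons of ET3x2 with S and with ET3x1. This was Ccl5, a chemokine for T cells and monocytes (probe set 1369983_at), with log2 signals of 9.38, 8.95, 9.56 and 9.54 in ET3x2 pools I to L, 9.68, 9.49, 9.89 and 9.93 in ET3x1 pools E to H, and 8.74, 8.70, 8.99 and 8.93 in S pools A to D. All 4 ET3x1 pools were above all 4 S pools, and ET3x2 pool J lay within the S range. Ccl5 was higher in ET3x1 than in S by 0.91 log2 units (SE 0.13, limma adjusted p = 0.00942), a call kept in all 22 other settings. The difference was 0.52 between ET3x2 and S (limma adjusted p = 0.173) and −0.39 between ET3x2 and ET3x1 (limma adjusted p = 0.188). The chemokine Cxcl12 did not pass, at −0.27 between ET3x2 and S (limma adjusted p = 0.230). Mean deviations of T and NK cell markers (9 probe sets, 8 of 12 genes) were 0.011 to 0.135 in ET3x2, −0.081 to 0.114 in ET3x1 and −0.118 to −0.036 in S, with none of them called. At an unadjusted p under 0.05 (limma) 1, 4 and 1 passed between ET3x1 and S, ET3x2 and S, and ET3x2 and ET3x1. The shares of all tested probe sets of both arrays were 11.8%, 10.9% and 13.1%. All 9 differences were positive in ET3x2 against S, and 7 were positive and 2 negative in ET3x1 against S. The part of these markers in the Ccl5 values was not tested.

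Of the Toll-like receptor signalling list (31 probe sets, 23 genes) 1 probe set was called, in 2 comparisons. The called shares of all tested probe sets were 0.44% between ET3x1 and S and 1.48% between ET3x2 and ET3x1. At an unadjusted p under 0.05 (limma) 5, 7 and 3 of the list passed between ET3x1 and S, ET3x2 and S, and ET3x2 and ET3x1. The shares of all tested probe sets were 11.8%, 10.9% and 13.1%. Traf6 (probe set 1393809_at, on RAE230B) had log2 signals of 7.53, 7.45, 7.65 and 7.45 in ET3x2 pools I to L, 8.32, 7.88, 8.17 and 8.06 in ET3x1 pools E to H, and 7.65, 7.75, 7.58 and 7.32 in S pools A to D. The 4 ET3x1 pools stood above the other 8. The log2 difference was −0.59 between ET3x2 and ET3x1 (limma adjusted p = 0.00771, kept in all 22 settings) and 0.53 between ET3x1 and S (limma adjusted p = 0.0317, lost in 7 of 22 settings and 0.114 without pool E). The other Traf6 probe sets, 1383778_at and 1392660_at, were not called and differed by 0.104 and −0.058 between ET3x2 and ET3x1 and by −0.065 and 0.13 between ET3x1 and S. Among the genes not called were Tbk1, a kinase of the interferon branch, at −0.47 between ET3x2 and ET3x1 (limma adjusted p = 0.0949), Irf3, a transcription factor of that branch, at −0.29 between ET3x2 and S (limma adjusted p = 0.304), and Ly96, the partner protein of Tlr4, at 0.19 between ET3x1 and S (limma adjusted p = 0.376).

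A receptor and a transcription factor of interleukin 6 signalling each had a called probe set between ET3x2 and ET3x1. Il6st, the shared receptor subunit gp130 (probe set 1370957_at), had log2 signals of 9.15, 9.25, 7.98 and 8.25 in ET3x2 pools I to L, 10.05, 9.77, 10.19 and 9.35 in ET3x1 pools E to H, and 9.55, 9.57, 10.20 and 9.66 in S pools A to D. The ET3x2 pools lay under the other 8. It was lower in ET3x2 than in ET3x1 by a log2 difference of −1.18 (limma adjusted p = 0.0473), a call lost in 9 of 22 settings and with an adjusted p of up to 0.189 (without pool G). The other 3 Il6st probe sets differed by −0.044, 0.15 and 0.18 and were not called. Stat3, the transcription factor downstream (probe set 1370224_at), averaged 10.1 in ET3x2 and 10.9 in ET3x1, a log2 difference of −0.77 (limma adjusted p = 0.0294). That call was lost without pool E (limma adjusted p = 0.0978), pool K (0.102) or pool G (0.117), and the second Stat3 probe set differed by −0.065. These were 1 of 21 probe sets of the cytokine and chemokine receptors and 1 of 21 of the interleukin 6 and acute phase list. In both comparisons with S 0 were called. Between ET3x2 and ET3x1 1.48% of all tested probe sets of both arrays were called.

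In the remaining pathway lists 0 probe sets were called by limma in any comparison. The unadjusted counts below stand against shares of all 21799 probe sets of both arrays, which were 11.8% for ET3x1 and 10.9% for ET3x2, each set against S, and 13.1% for ET3x2 set against ET3x1. In the inflammasome list, which matures Il1b and Il18 (10 probe sets), 0, 1 and 0 passed an unadjusted p under 0.05 between ET3x1 and S, ET3x2 and S, and ET3x2 and ET3x1. The one was Pycard, the adaptor that joins sensor and caspase 1, at 0.23 between ET3x2 and S (limma adjusted p = 0.436). Of the NF-kB list (19 probe sets) 1, 3 and 4 passed unadjusted in the same order of comparisons. Nfkb1, the subunit p105/p50, averaged 10.2 in ET3x2 and 10.7 in ET3x1, with a difference of −0.49 (limma adjusted p = 0.0813). It ran against most of its list, of which 15 probe sets had a positive and 4 a negative difference in that comparison (median 0.12, against 0.032 over all tested). Tnip1, an inhibitor of NF-kB signalling, was at 0.29 (limma adjusted p = 0.139) and Traf1, an adaptor of tumour necrosis factor receptors, at 0.16 (limma adjusted p = 0.279). The ET3x2 and ET3x1 pools did not overlap for Nfkb1, Tnip1 and Traf1. These were named for the smallest unadjusted p (limma) of the list in that comparison, a choice that favours pools without overlap. The share of all tested probe sets of RAE230A without overlap was 9.25%, which is no measure for probe sets so chosen. Traf1 is on RAE230B, for which this share was not counted. Of the other complement genes (27 probe sets) 1, 1 and 2 passed unadjusted. Serping1, the C1 inhibitor, averaged 11.4 in ET3x1 and 11.6 in S, with a difference of −0.25 (limma adjusted p = 0.230), and Mbl1, a lectin that starts complement activation, differed by 0.18 between ET3x2 and S (limma adjusted p = 0.383). Of the other adhesion genes (16 probe sets) 2 passed unadjusted in each comparison. Itgb2, the integrin chain that binds Icam1, averaged 9.24 in ET3x1 and 9.004 in S, with a difference of 0.24 (limma adjusted p = 0.126). Vcam1 differed by −0.26 between ET3x2 and S (limma adjusted p = 0.313). Of the other cytokines (21 probe sets) 4, 3 and 3 passed unadjusted, among them Tnfsf12 at 0.26 between ET3x1 and S (limma adjusted p = 0.270).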

How the data were processed

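Kidney RNA pools were hybridised to Affymetrix RAE230A and RAE230B arrays as biotin-labelled cRNA made with an oligo(dT) primer, per the labels' protocols. The deposited tables give 1 value per probe set and pool; their range (4.97 to 15.2 on RAE230A, 4.10 to 14.3 on RAE230B) was read as a log2 scale. How the authors made these log2 values (background correction, normalisation, summarisation) is not given in the sources used here, and no further scaling was applied. Precision is limited by the 12 pools, with no read depth to report.

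Control probe sets (57 per array) were left out. So were probe sets whose mean was less than the array's 30th percentile, which was 7.52 for RAE230A and 6.85 for RAE230B, leaving 11106 and 10693. Models for the 3 strains were fitted per array with limma 3.58.1 in R 4.3.3 (lmFit, then eBayes with its trend option) on all 12 pools, without covariates. P-values are two-sided, with Benjamini-Hochberg adjustment per array and comparison, and called under 0.05. They rest on the spread between pools made from different rats. Symbols came from the platform annotation, updated through gene identifiers to RefSeq on GRCr8: 12783 of 15866 probe sets on RAE230A and 7564 of 15276 on RAE230B had 1 symbol, 312 and 100 had several and 2771 and 7612 had none. Exact permutation tests, motif searches and drawing used Python 3.11.15 with pandas 2.3.3, scipy 1.17.1 and matplotlib 3.10.9. Scripts were tested on simulated data.

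The members, gene lists and markers were chosen with earlier results of these data known. Every member is given. Of the other lists, called genes and some of the up to 3 genes with the smallest unadjusted p are named, and for each tested member the 3 genes with the highest Pearson r over the 12 pools, as a description. The alternatives were no filter, a filter at the 50th percentile, quantile normalisation, centring each array on its median, an untrended or robust prior, array weights, fits to the 8 pools compared, the actin signal as a covariate, and leaving out each pool or pools A, B and J.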

Additional observations from a re-analysis of the deposited data

How the results depend on the processing

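Over 22 other settings the 10 genes gave 627 differences, of which 0 were called (limma). Some of these settings can change only the p of a difference and not its estimate. The smallest adjusted p was 0.145, and 43 values in 14 of the 30 differences changed sign without a call. A filter at the 50th percentile left Ccl2, Il1b and Il18 untested. The counts over all probe sets moved more. Between ET3x1 and S the 96 calls became 164 with array weights, 51 with only the 8 pools compared and 215 with the actin covariate, and 41 to 118 with 1 pool left out (41 without pool E, 57 without pool C). Between ET3x2 and S the 75 calls became 419 with array weights, 42 with only the 8 pools compared, 432 with the actin covariate and 17 without pools A, B and J, and 19 to 167 with 1 pool left out (19 without A, I or K, 21 without C, 36 without L, 44 without E, 140 without J and 167 without D). Between ET3x2 and ET3x1 the 323 calls became 1658 with array weights and 502 with the actin covariate, and 133 to 488 with 1 pool left out (133 without K, 146 without E, 197 without G, 204 without I and 488 without F). The cause was not tested. No paired analysis was possible because the pools of different strains share no replicate label. With 4 pools per strain the median SE on RAE230A was 0.095 log2 units. Cd14, Tlr4, Cxcl1 and Il6 had mean signals under the filter level, where differences are less certain in size. The distance from that level ran from −0.020 for Cd14 to −1.85 for Il6. The highest pools of Cd14 (7.89) and Tlr4 (7.54) lay above it.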

Other observations

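The B and plasma cell markers, which belong to none of the comparisons above, held the called genes among the cell type lists, together with 1 kidney gene. Their 7 tested probe sets, for 6 of 9 listed genes, had 2 called as higher in ET3x1 than in S, 1 called as higher in ET3x2 than in S, and 0 called when ET3x2 was set against ET3x1. All 3 calls were of Jchain, the chain that joins the subunits of secreted IgA and IgM. Its probe set 1383163_at differed by 1.72 log2 units between ET3x1 and S (limma adjusted p = 0.000516), a call kept in 22 of 22 settings. The other 2 calls were lost without pools A, B and J: 1384208_at between ET3x1 and S (0.50, limma adjusted p 0.0866 without them) and 1383163_at between ET3x2 and S (limma adjusted p 0.118 without them). The mean deviation of the list was −0.033 to 0.122 in ET3x2, −0.015 to 0.241 in ET3x1 and −0.360 to −0.107 in S. Both Jchain probe sets enter this mean, while over the list 4 probe sets had a positive and 3 a negative difference between ET3x1 and S, and 5 a positive and 2 a negative one between ET3x2 and S.

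Kidney epithelial markers were present, with 14 of 16 listed genes above the filter. One of them, Atp6v1b1, a subunit of the proton pump of intercalated cells, was called between ET3x1 and S at 0.33 (limma adjusted p = 0.0483), a call lost in 15 of 22 settings. Of the markers of adrenal, liver and fat 2 of 11 listed genes were above the filter. Of the macrophage, neutrophil, T and NK cell, endothelial, adrenal, liver and fat, and interferon-induced lists, 0 probe sets were called by limma in any comparison, while 7, 4 and 0 of the 19 interferon-induced probe sets passed an unadjusted p under 0.05 between ET3x1 and S, ET3x2 and S, and ET3x2 and ET3x1, against 11.8%, 10.9% and 13.1% of all tested probe sets. S pool D stood apart in the interferon-induced list, as given beside Cxcl10.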
